A study of Mus musculus with 11 samples.

Results

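The genes described here are 40 protein-coding genes of the G2 and M phases of the cell cycle, chosen by symbol from a list of mitotic regulators and spindle, kinetochore and chromosome proteins. All 40 were among the 55291 gene symbols of the count table and all 40 were among the 17183 genes tested. They were measured by RNA-seq in bone marrow Lin-cKit+Sca-1+ (LSK) cells of 11 individual C57BL/6 mice, a sort that contains stem cells and multipotent progenitors. There were 4 mice with the genotype Phf6R274X Tg (Tg), 3 Phf6 knock out mice (KO) and 4 wild type mice (WT). The X-linked gene Phf6 encodes a chromatin protein with PHD fingers that is recurrently mutated in acute leukaemia, and R274X is a nonsense change in it. The labels give no age, sex or treatment, and neither the promoter of the transgene nor the tissue in which the knockout was made. The labels describe the replicates as separate mice.

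A dividing cell raises its mitotic genes late in the cycle. Cdk1 bound to the A and B cyclins drives entry into mitosis, the polo, Aurora and checkpoint kinases direct spindle assembly, kinetochores tie chromosomes to microtubules, motor proteins of the kinesin family shape the spindle, and the anaphase-promoting complex (APC/C) with its partner Cdc20 ends mitosis by degrading cyclin B. Most of these genes are repressed in quiescent cells by the DREAM complex and activated in G2 by MuvB with B-Myb and by Foxm1. This regulation acts through a promoter element known as the CHR. CCAAT boxes, also common in these promoters, are bound by the factor NF-Y. Most long-term stem cells of the marrow are quiescent, whereas multipotent progenitors of the LSK fraction divide often, so that mitotic transcripts in LSK cells come from the cycling share of the fraction. In a bulk sample, fewer dividing cells and less RNA of a gene per dividing cell cannot be told apart.

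Libraries held 20990446 to 45632018 counts, and the members held between 565 counts (Gtse1) and 48399 counts (Top2a) in a library. Levels are counts scaled to the size of the library (CPM), with TMM factors. Phf6 was at 183 to 278 CPM in Tg, 15.4 to 23.96 CPM in KO and 109.9 to 142 CPM in WT, which separated the 3 genotypes. Of the genes of the sort, Kit, Ly6a (Sca-1) and Ptprc were read in every library. Xist, the transcript of the inactive X chromosome, was at 0.0307 to 0.324 CPM in Tg, 32.6 to 41.1 CPM in KO and 48.8 to 54.2 CPM in WT. The Y-linked genes Ddx3y, Uty, Kdm5d and Eif2s3y summed to 54.3 to 368 CPM in Tg, 0.0335 to 114 CPM in KO and 0.0634 to 134 CPM in WT. KO replicate 1 and WT replicates 1, 2 and 4 held both Xist and Y-linked reads (sums of 114, 129, 134 and 21.1 CPM), although the labels describe RNA of individual mice. Both kinds were counted as present with Xist over 1 CPM and a Y-linked sum over 10 CPM. KO replicate 2, with Xist at 39.99 CPM and a Y-linked sum of 1.74 CPM, fell short of these limits and was not among them. Whether a library holds RNA of more than 1 mouse was not tested, and n and the p-values count each library as 1 mouse. Xist-negative libraries were thus the Tg libraries alone, and genotype and Xist status cannot be told apart.

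Part of the mitotic apparatus fell in Tg LSK cells, by modest amounts. No member was called in KO. Against WT, 12 of 40 members fell in Tg and 0 rose (30% lower, where 2.39% of all genes tested were called lower and 2.54% higher; edgeR's quasi-likelihood test, Benjamini-Hochberg adjusted p under 0.05). The falls were those of Dlgap5, Nusap1, Ect2, Ndc80, Kif11, Kif2c, Top2a, Ttk, Kif4, Kif23, Tpx2 and Prc1. Against KO, 15 of 40 members fell and 0 rose (37.5% lower, where 3.06% of all genes were called lower and 2.63% higher). In KO against WT, 0 members fell and 0 rose, where 0.0175% and 0.00582% of all genes were called. At an unadjusted p under 0.05 edgeR found 0 members below WT (3.75% of all genes) and 0 above in KO, and DESeq2 and limma-voom called 0.

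The median log2 fold change of the 40 members was -0.24 in Tg against WT, -0.32 in Tg against KO and 0.06 in KO against WT, beside 0.005, 0.013 and -0.005 over all genes tested. Tg levels lay below WT for 39 of 40 members and below KO for 39 of 40, the exception being Cks2 in both. The members together took 0.463 to 0.485% of the counts of a Tg library, 0.566 to 0.616% in KO and 0.556 to 0.634% in WT, so that the highest Tg library lay below the lowest KO and WT libraries. At an unadjusted p under 0.05, 24 members were lower in Tg against WT (11.1% of all genes) and 30 against KO (10.9%). Tg and WT libraries did not overlap for 14 members lower in Tg (5.34% of all genes) and for 0 higher (4.50%). Both Tg comparisons use the same Tg libraries. Among the 12 called against WT the Tg level was 0.679 (Ndc80) to 0.823 (Prc1) times that of WT. With single libraries left out, the count against WT was 5 to 11 (5 without Tg replicate 1, 7 without Tg replicate 2 and 6 without WT replicate 2), and that against KO was 4 to 16 (5 without Tg replicate 1, 4 without KO replicate 1, 4 without KO replicate 2 and 5 without KO replicate 3). Over all genes tested, 86 were called lower against WT without Tg replicate 1, 134 without Tg replicate 2 and 134 without WT replicate 2. Against KO, 191 were called lower without Tg replicate 1, and 216, 178 and 209 without KO replicates 1, 2 and 3. With all libraries these counts were 410 against WT and 526 against KO.

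**Figure D1:**
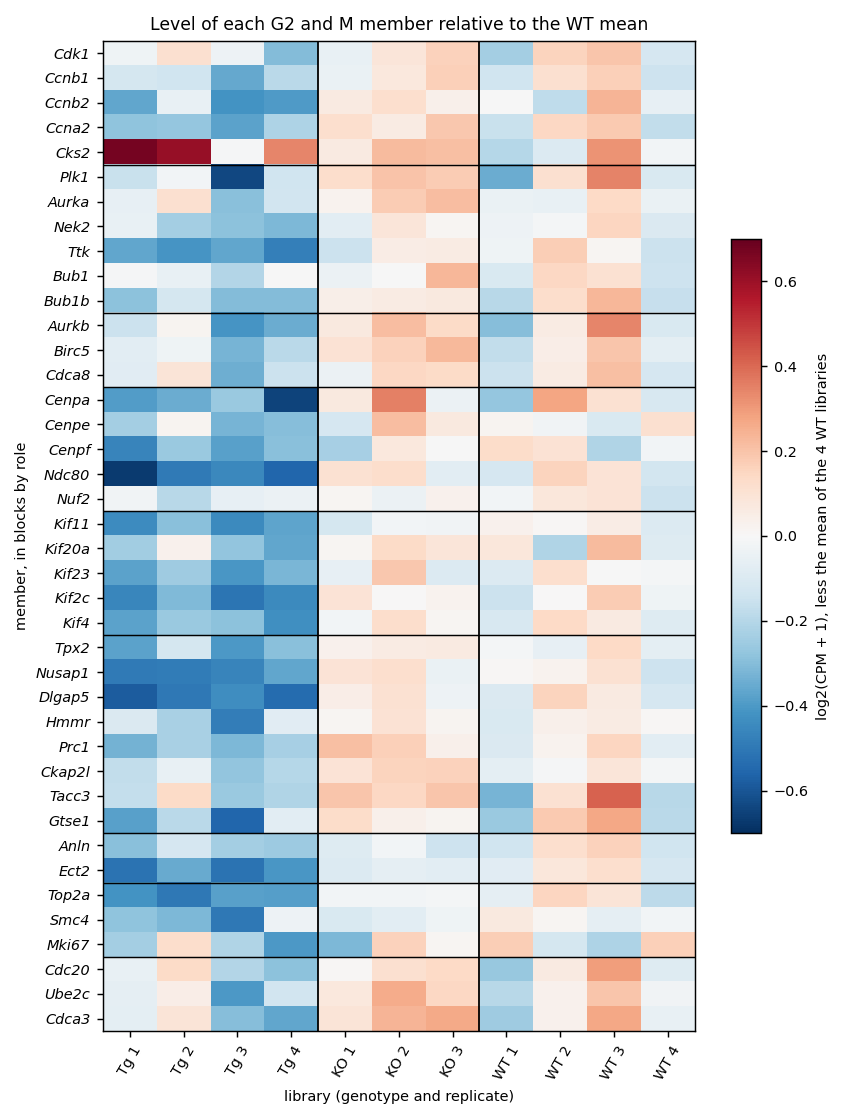
Level of each of the 40 members (rows, in blocks by role) in each of the 11 libraries (columns, Tg, KO and WT), as log2(CPM + 1) less the mean of the 4 WT libraries; blue is below and red above that mean. The Tg columns are mostly blue, with 39, 28, 40 and 39 of 40 members below the WT mean in Tg replicates 1 to 4, while the Cks2 row is red in Tg replicates 1, 2 and 4.

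The libraries with Xist and Y-linked reads together bear on these counts. With the mean level of the 4 Y-linked genes as a covariate, 9 members fell and 1, Cks2, rose in Tg against WT, the falls of Kif23, Tpx2 and Prc1 being lost, and 3 fell in Tg against KO (Ndc80, Nusap1 and Dlgap5). Of the 17183 genes tested with this covariate, 692 were called lower and 887 higher against WT, and 288 lower against KO. Leaving out KO replicate 1 and WT replicates 1, 2 and 4 left 1 WT library, replicate 3, assumed to vary like the other groups. In that fit 0 members were called in Tg against WT, where 11 of all genes were called lower. Of the 40 members 38 then lay below WT, with a median of -0.41. Against the other 2 KO libraries 4 members fell (Ttk, Ndc80, Nusap1 and Dlgap5), and 39 of 40 lay below KO, with a median of -0.36.

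Markers of other blood cells differed between the same groups. Marker calls here are those of Tg against WT, and calls against KO are given for the stem cell and megakaryocyte markers alone. Of 15 granulocyte-monocyte progenitor markers, such as Mpo and Elane, 10 rose in Tg against WT and 0 fell, and their summed level was 6846 to 28197 CPM in Tg, 5575 to 6865 CPM in KO and 2518 to 5595 CPM in WT. Of 12 mature neutrophil markers 2 rose and 0 fell, and they summed to 61.4 to 706 CPM in Tg, 39.6 to 75.8 CPM in KO and 20.97 to 115 CPM in WT. Ly6g was at 0 in all Tg libraries, but also at no more than 0.134 CPM in KO and 0.400 CPM in WT. It was too low to be tested. Of the lymphoid markers 2 of 11 for B cells fell, which summed to 208 to 329 CPM in Tg, 1502 to 6223 CPM in KO and 349.9 to 5237 CPM in WT, and 3 of 10 for T and NK cells, which summed to 17.9 to 22.2 CPM in Tg, 35.1 to 44.2 CPM in KO and 30.6 to 52.9 CPM in WT. A single gene weighed on the B cell sum, Ighm, at 5945 CPM in KO replicate 2. Of 10 macrophage markers 4 fell, with sums of 34 to 132 CPM in Tg, 46.04 to 163 CPM in KO and 55.3 to 248 CPM in WT. Vcam1, not called (log2 fold change 0.076), was at 107 CPM in Tg replicate 1 and 129.5 CPM in WT replicate 1. Those called had log2 fold changes of -4.42 (Cd5l), -2.79 (Hmox1), -2.62 (Mrc1) and -1.84 (Spic). Of 11 erythroid markers 2 fell, with sums of 15.2 to 81.2 CPM in Tg, 97.7 to 139 CPM in KO and 59.1 to 247 CPM in WT, and of 8 monocyte and dendritic cell markers 1 fell, with sums of 135 to 269.8 CPM in Tg, 507 to 696 CPM in KO and 208 to 414 CPM in WT. Of 8 megakaryocyte markers 0 passed against WT. They summed to 153 to 230.1 CPM in Tg, 59.4 to 106 CPM in KO and 88.03 to 162 CPM in WT. Against KO, Itga2b rose in Tg by 1.20 on the log2 scale, and the other megakaryocyte markers were not called. Of 6 mast cell and basophil markers 0 passed against WT. Their sums were 80.97 to 429 CPM in Tg, 119 to 238 CPM in KO and 89.96 to 283 CPM in WT. Of 15 stem cell markers 1 rose and 0 fell against WT. They summed to 1080.4 to 1638 CPM in Tg, 918 to 1043 CPM in KO and 853 to 1364 CPM in WT. Against KO, Procr, Tie1 and Sult1a1 rose in Tg by 1.02, 0.94 and 2.19 on the log2 scale, and the other stem cell markers were not called. Among all these markers, Ly6g in Tg was the 1 at 0 in all libraries of a group. The part of these cells in the levels of the mitotic genes was not tested.

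What the members share in sequence was read from their promoters, shown here because many of them moved together. RefSeq promoters (GRCm38.p6, 250 bases before to 50 after the start of the transcript) were matched by symbol for 34 of the 40 members, all but Ccna2, Dlgap5, Aurkb, Kif20a, Tpx2 and Smc4. The CHR was searched as TTTGAA or TTCGAA and the CCAAT box as CCAAT, both on either strand. A CHR stood in 25 (73.5%) of the 34 promoters and a CCAAT box in 27 (79.4%), while among 5364 promoters of tested genes with a mean level at least that of the lowest member (29.5 CPM) the shares were 13.9% and 38.7%. Both elements were found in 22 (64.7%) member promoters, against 6.23% of that background. A CHR between 50 bases before and 50 after the start was found in 23 (67.6%), against 4.06%. The E2F words TTTCCCGC and TTTGGCGC, also on either strand, were found in 0 of the 34, against 3.91%. Of the 10 promoters of members that fell in Tg against WT 9 held a CHR, and of the 24 of other members 16 did. For the CCAAT box the counts were 7 of 10 and 20 of 24, and for at least 2 CCAAT boxes 4 of 10 and 17 of 24. Neither split was tested. Among the 10, the promoter of Nusap1 held neither element, and those of Ndc80 and Kif2c held a CHR alone. A match describes letters in this window and shows no binding.

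The promoters of Ect2, Kif11 and Top2a are those of the lowest p in Tg against WT among called members that hold both elements. They are written 5′ to 3′ on the strand of the gene, with CHR and CCAAT matches in capitals (TTTGAA or TTCGAA with its reverse TTCAAA, and CCAAT with its reverse ATTGG). That of Top2a holds 4 CHR and 6 CCAAT matches, that of Ect2 2 and 3, and that of Kif11 1 and 1.
Ect2, chr3:27153829-27154128, minus strand: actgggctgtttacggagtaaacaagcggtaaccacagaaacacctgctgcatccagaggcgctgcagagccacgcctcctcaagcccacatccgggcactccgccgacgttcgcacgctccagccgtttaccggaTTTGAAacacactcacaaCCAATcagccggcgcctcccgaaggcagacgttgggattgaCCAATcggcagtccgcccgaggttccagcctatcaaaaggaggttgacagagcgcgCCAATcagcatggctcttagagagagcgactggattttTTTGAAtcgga
Kif11, chr19:37376132-37376431, plus strand: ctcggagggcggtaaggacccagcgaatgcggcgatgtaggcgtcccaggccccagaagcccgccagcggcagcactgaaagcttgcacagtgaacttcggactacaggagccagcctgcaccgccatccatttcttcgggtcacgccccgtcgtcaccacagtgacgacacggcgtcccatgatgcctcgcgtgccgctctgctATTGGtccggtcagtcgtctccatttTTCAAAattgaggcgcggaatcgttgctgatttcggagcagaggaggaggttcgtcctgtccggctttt
Top2a, chr11:99024140-99024439, minus strand: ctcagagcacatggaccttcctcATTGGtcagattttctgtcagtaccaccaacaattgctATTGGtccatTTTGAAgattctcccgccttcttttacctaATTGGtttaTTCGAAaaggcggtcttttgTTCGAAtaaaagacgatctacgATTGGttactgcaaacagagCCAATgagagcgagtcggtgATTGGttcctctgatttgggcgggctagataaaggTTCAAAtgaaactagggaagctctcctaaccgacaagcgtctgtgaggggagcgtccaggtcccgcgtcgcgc

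Of the 5 spindle motors 4 fell in Tg in both comparisons. Kif11, the kinesin that pushes spindle poles apart (chromosome 19, 37376403 to 37421859, GRCm38), was measured at 218, 242, 217 and 229 CPM in the Tg libraries, 272, 292 and 292 CPM in the KO libraries and 303, 298, 308 and 278 CPM in the WT libraries. Every Tg library lay below every KO and WT library. Kif11 fell by 0.39 (SE 0.064, adjusted p = 0.0122) on the log2 scale in Tg against WT and by 0.33 (SE 0.069, adjusted p = 0.0204) against KO. Kif2c (MCAK), a kinesin that depolymerizes microtubules at centromeres, was at 34.98, 38.8, 33.6 and 35.2 CPM in the Tg libraries, 51.7, 48.4 and 49.2 CPM in the KO libraries and 43.5, 48.4, 54.9 and 47.3 CPM in the WT libraries. Again no Tg library reached the lowest KO or WT library. Kif2c fell by 0.45 (SE 0.082, adjusted p = 0.0164) against WT and by 0.48 (SE 0.088, adjusted p = 0.0121) against KO. Kif4, a chromosome-bound kinesin, was at 66.3, 71.7, 70.4 and 63.6 CPM in the Tg libraries, 85.02, 94.05 and 87.03 CPM in the KO libraries and 79.6, 95.004, 90.03 and 80.8 CPM in the WT libraries. The Tg libraries were the 4 lowest. Kif4 fell by 0.34 (SE 0.075, adjusted p = 0.0274) against WT and by 0.38 (SE 0.080, adjusted p = 0.0213) against KO. Kif23, the motor of the centralspindlin complex, was at 82.8, 90.5, 80.9 and 85.9 CPM in the Tg libraries, 103, 123 and 101 CPM in the KO libraries and 101, 117, 107 and 106 CPM in the WT libraries. Its Tg libraries also lay below all others. Kif23 fell by 0.34 (SE 0.078, adjusted p = 0.0338) against WT and by 0.36 (SE 0.084, adjusted p = 0.0337) against KO. Kif4 is X-linked and its exons overlap those of Pdzd11, and the strand setting of the counting is not given in the labels. The call against WT was lost for Kif2c without Tg replicate 1 (adjusted p = 0.0546), for Kif4 without Tg replicates 1, 2 or 4 or WT replicate 2 (up to 0.0878, without Tg replicate 1) and for Kif23 without any library other than KO replicates 2 and 3 and WT replicate 3 (up to 0.102, without Tg replicate 1). The call against KO was lost for Kif11 without Tg replicate 1 or KO replicates 1, 2 or 3 (up to 0.095, without KO replicate 2), for Kif2c without KO replicate 1 (adjusted p = 0.0565), for Kif4 without Tg replicate 1 or KO replicates 1, 2 or 3 (up to 0.109, without KO replicate 2) and for Kif23 without Tg replicates 1, 3 or 4 or KO replicates 1, 2 or 3 (up to 0.15, without KO replicate 2). The remaining motor, Kif20a, had a log2 fold change of -0.22 (SE 0.11, adjusted p = 0.263) against WT and did not pass.

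Among 8 spindle and microtubule proteins 4 fell in Tg against WT and 5 against KO. Dlgap5 (HURP), which stabilizes kinetochore microtubules, had the lowest p of the members in both comparisons. It was at 42.8, 45.2, 47.4 and 44.002 CPM in the Tg libraries, 66.7, 69.5 and 62.8 CPM in the KO libraries and 59.95, 71.9, 67.3 and 59.2 CPM in the WT libraries. The Tg libraries lay within a narrow range and the highest of them was well below the lowest WT library. It fell by 0.53 (SE 0.077, adjusted p = 0.00733) on the log2 scale in Tg against WT and by 0.56 (SE 0.082, adjusted p = 0.00398) against KO. Nusap1, which bundles microtubules near chromatin, was at 94.1, 94.1, 96.03 and 103 CPM in the Tg libraries, 142, 144 and 129 CPM in the KO libraries and 134, 135, 143 and 120.2 CPM in the WT libraries. Its Tg libraries were all lower than the WT and KO libraries. It fell by 0.46 (SE 0.071, adjusted p = 0.00977) on the log2 scale in Tg against WT and by 0.51 (SE 0.076, adjusted p = 0.0042) against KO. The call of both genes held without each of the 11 libraries in turn.

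Tpx2, the activator of Aurora A on spindle microtubules, was at 128, 153, 126 and 136 CPM in the Tg libraries, 170.4, 173 and 174 CPM in the KO libraries and 165, 160.1, 184 and 159 CPM in the WT libraries. Its groups did not overlap, but Tg replicate 2 came close to the lowest WT library. It fell by 0.30 (SE 0.076, adjusted p = 0.0476) on the log2 scale in Tg against WT and by 0.35 (SE 0.082, adjusted p = 0.0342) against KO. Prc1, the cross-linker of the central spindle, was at 109, 118, 111 and 117 CPM in the Tg libraries, 159.5, 155 and 141 CPM in the KO libraries and 128, 140.1, 153 and 131 CPM in the WT libraries. Tg libraries were lower than all others. It fell by 0.28 (SE 0.072, adjusted p = 0.0495) on the log2 scale in Tg against WT and by 0.42 (SE 0.078, adjusted p = 0.013) against KO. The exons of Prc1 overlap those of Rccd1. Ckap2l, a spindle protein, was at 68.1, 73.9, 63.1 and 66.9 CPM in the Tg libraries, 82.3, 85.9 and 85.99 CPM in the KO libraries and 73.3, 76.5, 81.6 and 76.2 CPM in the WT libraries. Tg overlapped WT by 1 library and lay below KO, and KO lay above WT. It fell by 0.32 (SE 0.068, adjusted p = 0.0242) in Tg against KO and had -0.18 (SE 0.064, adjusted p = 0.133) against WT and 0.14 (SE 0.069, adjusted p = 0.719) in KO against WT, neither of which passed. Against WT it was called lower with library totals or without the length trend. The call against WT was lost for Tpx2 without any library other than Tg replicate 2 (up to 0.141, without Tg replicate 1) and for Prc1 without any single library (up to 0.143, without Tg replicate 1). The call against KO was lost for Tpx2 without Tg replicates 1, 3 or 4 or KO replicates 1, 2 or 3 (up to 0.125, without KO replicate 2), for Prc1 without KO replicates 1 or 2 (up to 0.0658, without KO replicate 1) and for Ckap2l without Tg replicate 1 or KO replicates 1, 2 or 3 (up to 0.109, without KO replicate 2). Hmmr, Tacc3 and Gtse1 had log2 fold changes of -0.22 (SE 0.088, adjusted p = 0.174), -0.15 (SE 0.15, adjusted p = 0.607) and -0.32 (SE 0.14, adjusted p = 0.221) in Tg against WT and did not pass.

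At the centromere and kinetochore, 1 of 5 members fell in Tg against WT and 2 against KO. Ndc80, the kinetochore subunit that grips microtubules, was at 33.4, 37.8, 39.1 and 36.3 CPM in the Tg libraries, 57.9, 58.7 and 51.1 CPM in the KO libraries and 49.4, 59.9, 57.5 and 49.04 CPM in the WT libraries. Tg libraries were at 0.679 times the WT level, and all 4 lay below the other 7. It fell by 0.56 (SE 0.089, adjusted p = 0.0105) on the log2 scale in Tg against WT and by 0.61 (SE 0.096, adjusted p = 0.00578) against KO. Ndc80 shares stretches of at least 200 bases at 95% identity or more with 2700099C18Rik and the pseudogene Gm47120, so its level is uncertain to that extent. Its partner in the same complex, Nuf2, was at 64.9, 57.5, 63.3 and 64.04 CPM in the Tg libraries, 66.6, 64.2 and 67.5 CPM in the KO libraries and 65.1, 69.7, 70.5 and 59.2 CPM in the WT libraries. The Nuf2 groups overlapped, and its log2 fold change of -0.08 (SE 0.071, adjusted p = 0.533) did not pass. Cenpa, the histone variant that marks centromeres, was at 75.4, 77.9, 82.6 and 63.1 CPM in the Tg libraries, 104, 127 and 96.6 CPM in the KO libraries and 81.97, 121, 107 and 91.8 CPM in the WT libraries. Its Tg libraries lay below KO, while 1 overlapped WT. Cenpa fell by 0.55 (SE 0.14, adjusted p = 0.046) against KO and had -0.42 (SE 0.13, adjusted p = 0.0889) against WT. In the leave-one-out fits the call against KO was lost for Cenpa without any library other than Tg replicate 3 and WT replicates 1 and 2 (up to 0.191, without KO replicate 2). The kinetochore kinesin Cenpe and Cenpf, a large coiled-coil kinetochore protein, had -0.21 (SE 0.097, adjusted p = 0.235) and -0.35 (SE 0.094, adjusted p = 0.0533), neither passing in edgeR, though all 4 Tg libraries of Cenpf lay below the WT libraries. DESeq2 called Cenpa and Cenpf lower against WT, and edgeR called Cenpf lower with library totals, with autosomal protein-coding genes alone or without WT replicate 3.

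In cytokinesis Ect2, the exchange factor that activates RhoA at the division plane, was at 86.2, 96.6, 86.3 and 93.1 CPM in the Tg libraries, 116, 118 and 118 CPM in the KO libraries and 117, 131, 134 and 114 CPM in the WT libraries. Tg libraries did not reach the KO or WT range. It fell by 0.46 (SE 0.071, adjusted p = 0.01) on the log2 scale in Tg against WT and by 0.37 (SE 0.076, adjusted p = 0.019) against KO. Anln (anillin), a scaffold of the contractile ring, overlapped between Tg and WT and had -0.23 (SE 0.083, adjusted p = 0.129). Of the chromosome proteins, Top2a, the topoisomerase that untangles sister chromatids and the member with the most counts, was at 803, 759, 824 and 822 CPM in the Tg libraries, 1058, 1061 and 1065 CPM in the KO libraries and 1029, 1192, 1144 and 947 CPM in the WT libraries. The KO values were close together, and every Tg library was lower than every KO and WT library. It fell by 0.43 (SE 0.082, adjusted p = 0.0187) on the log2 scale in Tg against WT and by 0.40 (SE 0.088, adjusted p = 0.0255) against KO. The call against WT was lost for Top2a without Tg replicates 1 or 2 or WT replicate 2 (up to 0.0629, without Tg replicate 1). The call against KO was lost for Ect2 without Tg replicate 1 or KO replicates 1, 2 or 3 (up to 0.0824, without KO replicate 2) and for Top2a without Tg replicates 1 or 2 or KO replicates 1, 2 or 3 (up to 0.0888, without KO replicate 2). Smc4, a condensin subunit, and Mki67, the proliferation antigen, did not pass in edgeR. Smc4 had -0.28 (SE 0.090, adjusted p = 0.102) against WT in edgeR, and was called lower by DESeq2 and by edgeR without Tg replicate 4. Mki67 was at 741, 952, 754 and 659.7 CPM in the Tg libraries, 703, 977 and 879.9 CPM in the KO libraries and 983, 802, 749.9 and 981 CPM in the WT libraries. Its libraries overlapped between all genotypes, and its log2 fold change was -0.18 (SE 0.14, adjusted p = 0.507) in Tg against WT.

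Of the 5 members of the Cdk1 module edgeR called 0 in Tg against WT, where 3 were lower and 1 higher at an unadjusted p under 0.05, and 1 against KO. DESeq2 called Ccna2 and Ccnb2 lower in both comparisons, and limma-voom called 0 against WT and Ccna2 against KO. Ccnb2 was also called in both with library totals or without the length trend, and against KO in edgeR without Tg replicate 2, without WT replicate 3 or with autosomal protein-coding genes alone. Cdk1 itself, the kinase that drives mitosis, was at 114, 125, 113 and 93.8 CPM in the Tg libraries, 112, 123 and 129.8 CPM in the KO libraries and 98.3, 129, 133 and 107 CPM in the WT libraries. Its groups overlapped, and the log2 fold change was -0.07 (SE 0.11, adjusted p = 0.782) against WT and -0.12 (SE 0.12, adjusted p = 0.618) against KO. Ccna2 (cyclin A2) was at 158, 159, 148 and 165 CPM in the Tg libraries, 209, 199.8 and 219 CPM in the KO libraries and 172, 213, 218 and 170.0 CPM in the WT libraries. Tg libraries lay below all KO and WT libraries. Ccna2 fell by 0.41 (SE 0.097, adjusted p = 0.0352) against KO and had -0.30 (SE 0.091, adjusted p = 0.0847) against WT. In the leave-one-out fits the call against KO was lost for Ccna2 without Tg replicates 1, 2, 3 or 4 or KO replicates 1, 2 or 3 (up to 0.117, without KO replicate 3). The B cyclins Ccnb1 and Ccnb2 had -0.21 (SE 0.092, adjusted p = 0.21) and -0.31 (SE 0.10, adjusted p = 0.109) against WT. Cks2, a small subunit bound to Cdk1, was at 68.3, 65.5, 42.3 and 54.2 CPM in the Tg libraries, 44.4, 49.7 and 49.3 CPM in the KO libraries and 36.8, 39.8, 53.01 and 41.99 CPM in the WT libraries. It is the 1 member with a higher Tg mean, its groups overlapped, and its log2 fold change of 0.42 (SE 0.15, adjusted p = 0.131) did not pass. Without Tg replicate 3 Cks2 was called higher against WT. Cks2 and Ccnb1 have pseudogenes with stretches of at least 200 bases at 95% identity or more, with which the counting could share reads, and the exons of Ccna2 overlap those of Exosc9. Mki67 has a similar stretch in Gm44521. Besides Ccna2, Kif4 and Prc1, exons overlap those of another gene for the called members Nusap1 (Oip5, by 172 bases), Top2a (Gm23451, by 122 bases) and Ckap2l (Gm14024, by 181 bases), and for Ube2c (Tnnc2), Kif20a (Cdc23), Tacc3 (Tmem129), Nek2 (Gm38037), Plk1 (Gm44985), Cdca8 (9930104L06Rik) and Cdc20 (Elovl1). With the strand setting not given, the levels of these members are uncertain to that extent.

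Of 6 mitotic kinases and checkpoint proteins 1 fell, in both comparisons. Ttk (Mps1), the kinase at the head of the spindle checkpoint, was at 37.1, 35.8, 37.1 and 34.2 CPM in the Tg libraries, 43.1, 49.7 and 49.9 CPM in the KO libraries and 46.9, 54.1, 48.3 and 43.1 CPM in the WT libraries. Each Tg library was lower than each KO and WT library. It fell by 0.42 (SE 0.084, adjusted p = 0.0218) on the log2 scale in Tg against WT and by 0.40 (SE 0.090, adjusted p = 0.0289) against KO. The call against WT was lost for Ttk without Tg replicates 1 or 2 or WT replicate 2 (up to 0.0603, without Tg replicate 2). The call against KO was lost for Ttk without Tg replicates 1, 2 or 4 or KO replicates 2 or 3 (up to 0.126, without KO replicate 2). Plk1, Aurka, Nek2, Bub1 and Bub1b had log2 fold changes of -0.25, -0.09, -0.23, -0.07 and -0.27 in Tg against WT, with adjusted p of 0.132 to 0.706 in edgeR. In the chromosomal passenger complex, which corrects attachments at the centromere, Birc5 (survivin) was at 56.2, 57.98, 47.2 and 51.96 CPM in the Tg libraries, 63.7, 66.6 and 69.7 CPM in the KO libraries and 52.6, 61.3, 68.01 and 56.5 CPM in the WT libraries. Tg lay below KO and overlapped WT. Birc5 had -0.16 (SE 0.092, adjusted p = 0.341) against WT, -0.32 (SE 0.099, adjusted p = 0.0827) against KO and 0.16 (SE 0.099, adjusted p = 0.784) in KO against WT. Aurkb, its kinase, and Cdca8 (borealin) had -0.24 (SE 0.13, adjusted p = 0.334) and -0.12 (SE 0.11, adjusted p = 0.551). Among the APC/C and ubiquitin members, Cdc20, the APC/C activator, Ube2c, its ubiquitin-conjugating enzyme, and Cdca3 had -0.11 (SE 0.12, adjusted p = 0.652), -0.14 (SE 0.11, adjusted p = 0.496) and -0.16 (SE 0.13, adjusted p = 0.49). With all libraries, edgeR called 0 of the passenger complex and of the APC/C and ubiquitin members in the 3 comparisons. At an unadjusted p under 0.05 it found 0 of them in Tg against WT and 0 in KO against WT. In Tg against KO, 2 of 3 passenger complex members and 2 of 3 APC/C and ubiquitin members were lower at that threshold. DESeq2 called Birc5 lower in Tg against KO, as did edgeR without WT replicate 3, and limma-voom called 0. With only the groups compared, edgeR also called Bub1b lower in Tg against KO.

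**Figure D2:**
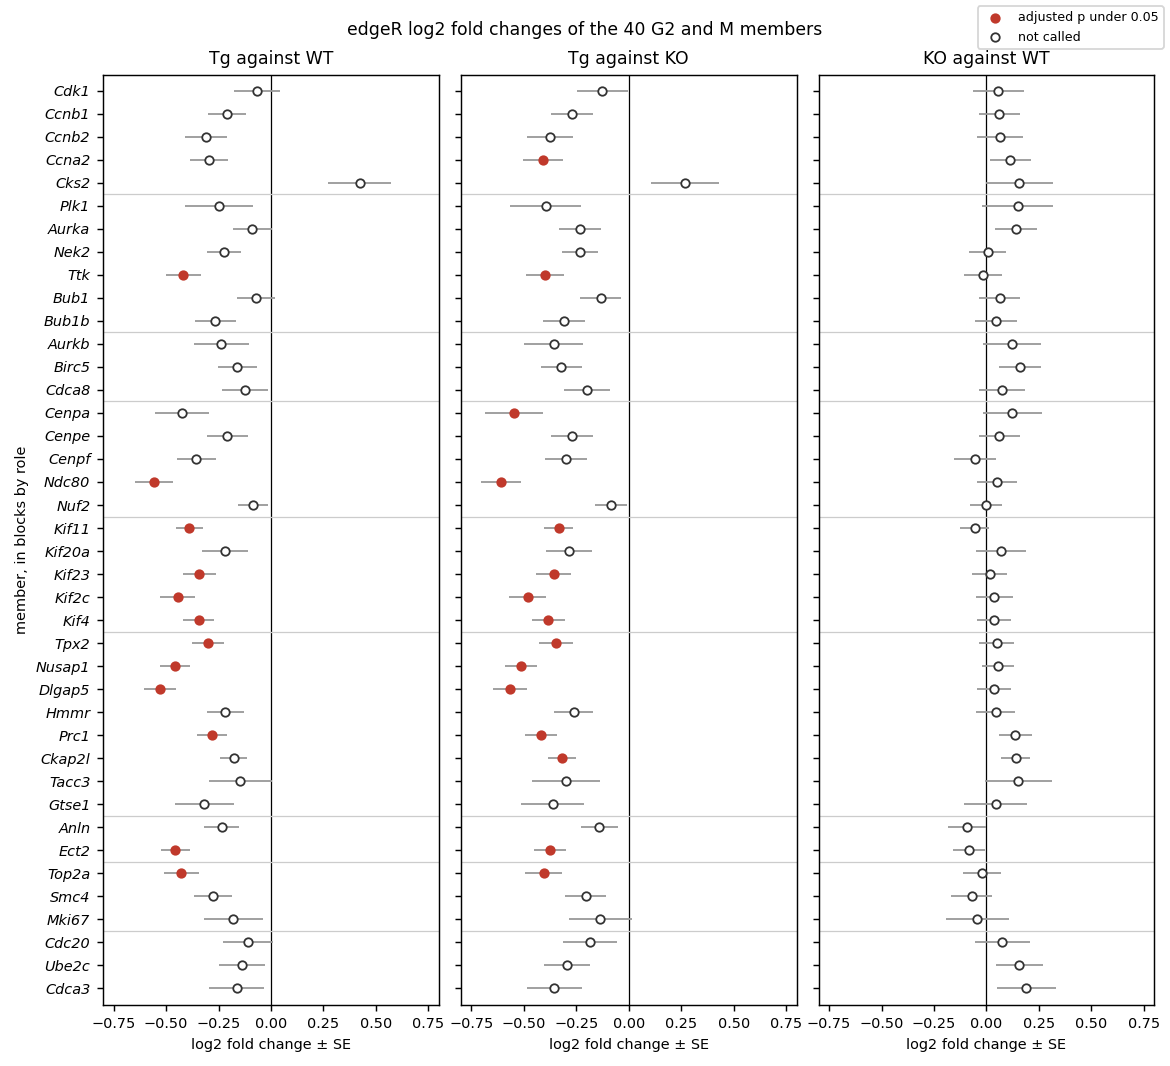
Log2 fold changes (horizontal axis, ± SE) of the 40 members (rows, in blocks by role) in Tg against WT, Tg against KO and KO against WT; filled points passed an adjusted p of 0.05 in edgeR. All points but Cks2 lie left of 0 in both Tg comparisons, 12 and 15 of them filled, and none is filled in KO against WT.

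In KO against WT the members' log2 fold changes ran from -0.09 (Anln) to 0.19 (Cdca3), and 31 of 40 lay above 0. The other 9 (22.5%) lay below WT, beside 43.1% of 6637 genes of at least the level of the lowest member. With single libraries left out, 6 (without KO replicate 1 or WT replicate 2) to 18 (without WT replicate 1) members lay below WT. The 3 members with the lowest p were Ckap2l, Prc1 and Birc5, and the log2 fold change of Prc1 was 0.14 (SE 0.078, adjusted p = 0.759). Without KO replicate 1 and WT replicates 1, 2 and 4, which left 1 WT library, the log2 fold change of Prc1 was -0.031. In that fit 26 of 40 members lay below WT, with a median of -0.05. KO and WT libraries did not overlap for 1 member higher in KO, Ckap2l (3.79% of all genes), and for 0 lower (3.71%). The SEs ran from 0.069 to 0.17 in KO against WT.

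**Figure D3:**
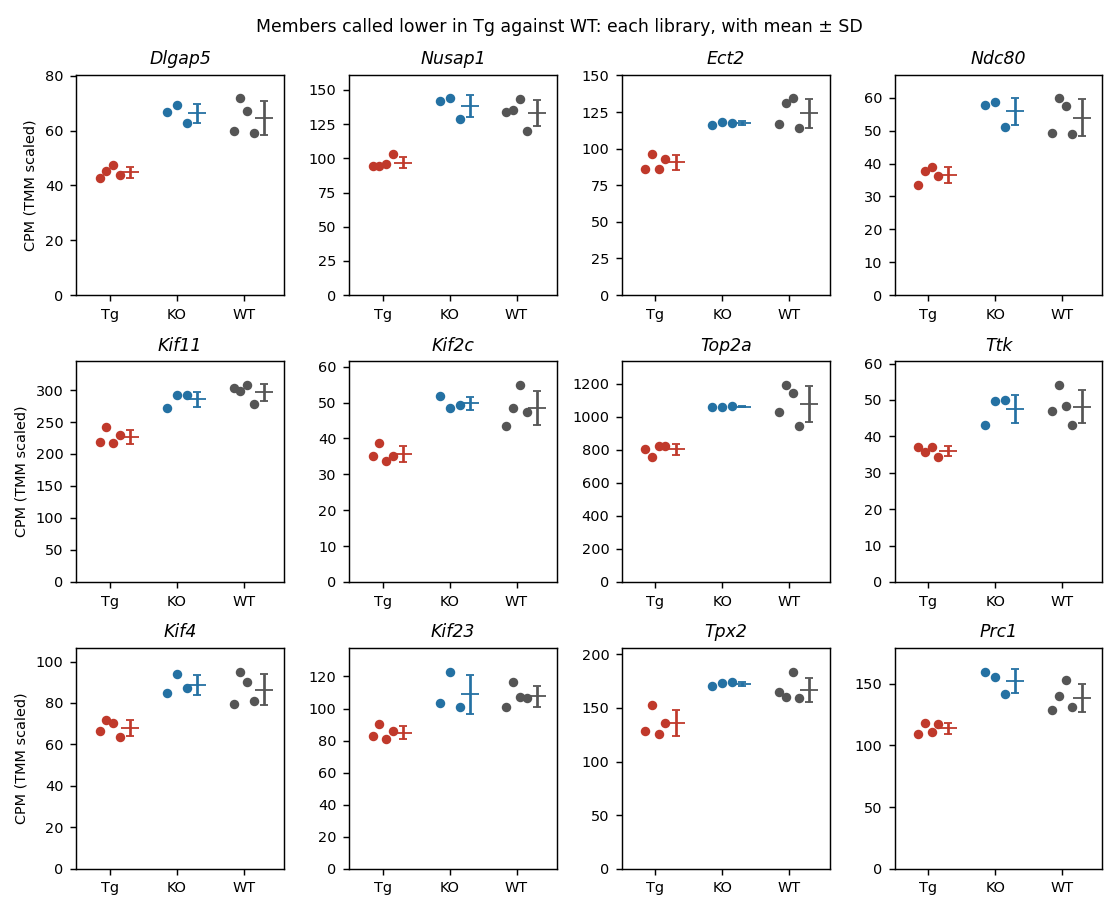
CPM of the 12 members called lower in Tg against WT (a panel each) in the 4 Tg, 3 KO and 4 WT libraries; points are libraries and bars are mean ± SD. In each panel the Tg points lie below every KO and WT point.

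Levels were also taken per kilobase of exon, with all annotated exons of a gene merged. In WT they ran from 8.31 CPM per kb for Ndc80 to 120.0 for Top2a. Mki67 was at 87.4, Smc4 at 69, Cks2 at 62 and Ccnb2 at 52.3. In Tg the same order began with Top2a at 89 and Cks2 at 83.2, followed by Mki67 at 77.2 and Smc4 at 57 CPM per kb. Within a genotype the members varied as follows: the median coefficient of variation over libraries was 8.73% in Tg, 5.11% in KO and 10.4% in WT, beside 10.1%, 6.04% and 10.4% for all genes of at least their level. The steadiest was Top2a in KO (0.343%) and the most variable Tacc3 in WT (23.6%).

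The variation within a genotype was shared by many members. WT replicate 3 was the highest WT library for 28 of 40 members and WT replicate 1 the lowest for 20, and 33 and 37 members lay below the WT mean in WT replicates 1 and 4, against 9 and 5 in replicates 2 and 3. In Tg, replicate 2 was the highest for 25 members and replicate 3 the lowest for 21. As a description over the 11 libraries, each member's deviation from its genotype mean was correlated with the mean deviation of the other 39. Pearson's r was 0.969 for Cdca8, 0.954 for Aurkb, 0.926 for Birc5 and 0.908 for Cdc20, and near 0 for Smc4 (-0.03), Mki67 (-0.077) and Cenpf (-0.126). Of the 12 members that fell in Tg against WT, r ran from 0.311 (Nusap1) to 0.869 (Ect2). The points share libraries and scaling.

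Exonic length moved with these values. It is that of all annotated exons of a gene merged, which can exceed the length of the transcripts expressed. Across the 40 members, Spearman's rho of exonic length was -0.60 with the shared variation and -0.39 with the log2 fold change of Tg against WT, and -0.06 with that of Tg against KO. Across 6538 genes of at least the members' level it was -0.23 for Tg against WT, 0.04 for Tg against KO and -0.44 for KO against WT. With the length trend of each library taken out, an alternative added after the data were examined, 12 members were called lower in Tg against WT and 15 against KO, with medians of -0.26 and -0.32. Kif23 and Prc1 then lost the call against WT and Cenpa that against KO, while Ccnb2 and Ckap2l gained it against WT and Ccnb2 against KO.

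**Figure D4:**
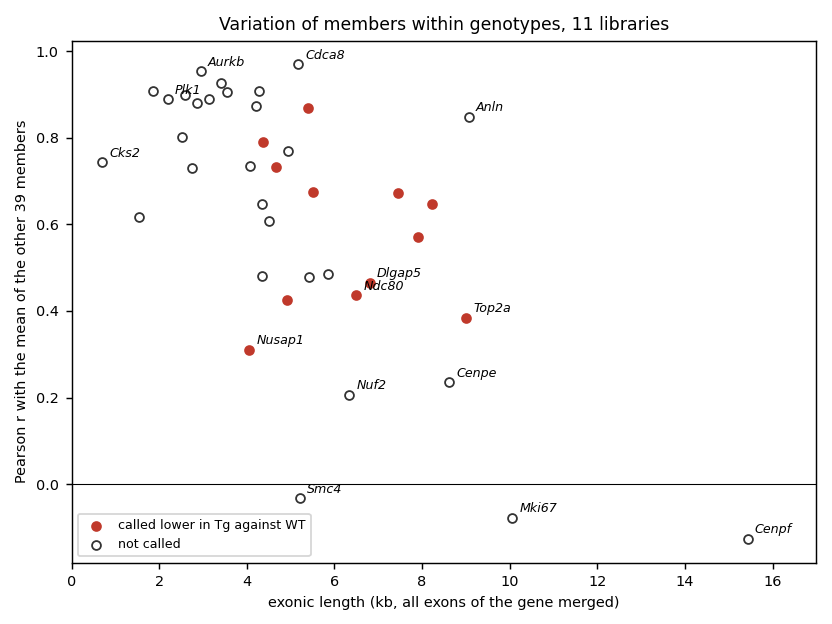
Pearson r between each member's deviation from its genotype mean and the mean deviation of the other 39 members over 11 libraries (vertical axis) against merged exonic length in kb (horizontal axis); filled points are members called lower in Tg against WT. Aurkb sits near the top, and the long genes Mki67 and Cenpf near 0. Other members lie off this pattern: the long Anln is at 0.848, the short Cks2 at 0.744 and Smc4, of middle length, at -0.03.

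Other genes of the pathway were read from lists chosen by function. Of 60 further G2 and M genes 9 fell and 0 rose in Tg against WT (median -0.24, 58 below), and 8 fell and 0 rose against KO (median -0.25). In KO against WT 0 genes of any of the 6 lists were called by edgeR, DESeq2 or limma-voom, with 1 of the further G2 and M genes below WT and 1 regulator below and 1 above at an unadjusted p under 0.05. Stil, a centriole assembly protein, was at 55.3 ± 4.06 CPM in Tg, 81.3 ± 3.79 CPM in KO and 81.2 ± 10.3 CPM in WT (SD, n = 4, 3 and 4). Stil fell by 0.56 (SE 0.093, adjusted p = 0.0125) against WT. Ckap5, a microtubule polymerase, fell by 0.35 (SE 0.060, adjusted p = 0.0127), the kinesin Kif20b by 0.34 (SE 0.066, adjusted p = 0.0183) and Fbxo5 (Emi1), an inhibitor of the APC/C, by 0.47 (SE 0.10, adjusted p = 0.0274). Against KO, Pimreg fell by 0.75 (SE 0.16, adjusted p = 0.0209), Stmn1 (stathmin), which destabilizes microtubules, by 0.59 (SE 0.12, adjusted p = 0.0213), Stil by 0.56 (SE 0.099, adjusted p = 0.0106) and Kif22 by 0.50 (SE 0.11, adjusted p = 0.0251).

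Of 16 condensin and cohesin genes 1 fell in Tg against WT, the condensin subunit Ncaph, by 0.43 (SE 0.088, adjusted p = 0.0229) on the log2 scale. Against KO 2 fell, Ncaph by 0.49 (SE 0.094, adjusted p = 0.0153) and Ncapd2, another condensin subunit, by 0.49 (SE 0.12, adjusted p = 0.0396). Of 16 APC/C genes 0 fell and 0 rose against WT, with 2 below and 1 above at an unadjusted p under 0.05, and DESeq2 called 1 lower and 1 higher. Against KO 0 fell and 0 rose, with 3 below and 0 above at an unadjusted p under 0.05 and 1 lower by DESeq2. The median log2 fold change of the APC/C genes was -0.10 in Tg against WT. Of 46 S phase genes 3 fell (Clspn, Slbp and Pcna) and 0 rose against WT, with a median of -0.09 and 30 below. Against KO 3 fell and 0 rose, with a median of -0.17 and 44 of the 46 below (95.7%, beside 48% of all genes). In KO against WT 41 of the 46 S phase genes lay above WT, with a median of 0.087. The other 5 (10.9%) lay below, beside 51.1% of all genes. Among G1 cyclins and Cdk inhibitors, 10 of 12 were tested and 1 fell, the Cdk4 and Cdk6 inhibitor Cdkn2c, by 0.59 (SE 0.13, adjusted p = 0.0333) against WT and by 0.72 (SE 0.14, adjusted p = 0.0169) against KO. Whether the share of members called differs from that of these lists was not tested.

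Of 25 regulators of these genes 2 fell and 0 rose in Tg against WT, Tfdp2, a partner of E2F factors, by 0.35 (SE 0.080, adjusted p = 0.0339) and Nfyb, a subunit of the CCAAT-binding factor NF-Y, by 0.27 (SE 0.063, adjusted p = 0.0344). Against KO 1 fell, Foxm1, the activator of G2 genes. Foxm1 was at 55.2, 63.1, 60.3 and 56.8 CPM in the Tg libraries, 88.2, 78.7 and 85.1 CPM in the KO libraries and 63.5, 77.97, 83.8 and 66.6 CPM in the WT libraries. Tg lay below KO, and every WT library lay above Tg as well. Foxm1 fell by 0.51 (SE 0.099, adjusted p = 0.0155) in Tg against KO, and had -0.31 (SE 0.093, adjusted p = 0.0775) against WT and 0.20 (SE 0.099, adjusted p = 0.719) in KO against WT. Mybl2 (B-Myb) averaged 47.9 ± 7.94 CPM in Tg, 52.8 ± 5.99 CPM in KO and 47.2 ± 10.1 CPM in WT (SD, n = 4, 3 and 4), with 0.02 (SE 0.16, adjusted p = 0.952) in Tg against WT. E2f1, E2f4, E2f7 and E2f8 had log2 fold changes of 0.20, 0.09, -0.52 and -0.24 against WT and did not pass. The DREAM subunits Lin54, Rbl1 (p107) and Rbl2 (p130) had -0.16, -0.27 and 0.06, and Cdkn1a (p21) and Trp53 had -0.29 and 0.06. None of these 9 passed (adjusted p 0.12 to 0.83).

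**Figure D5:**
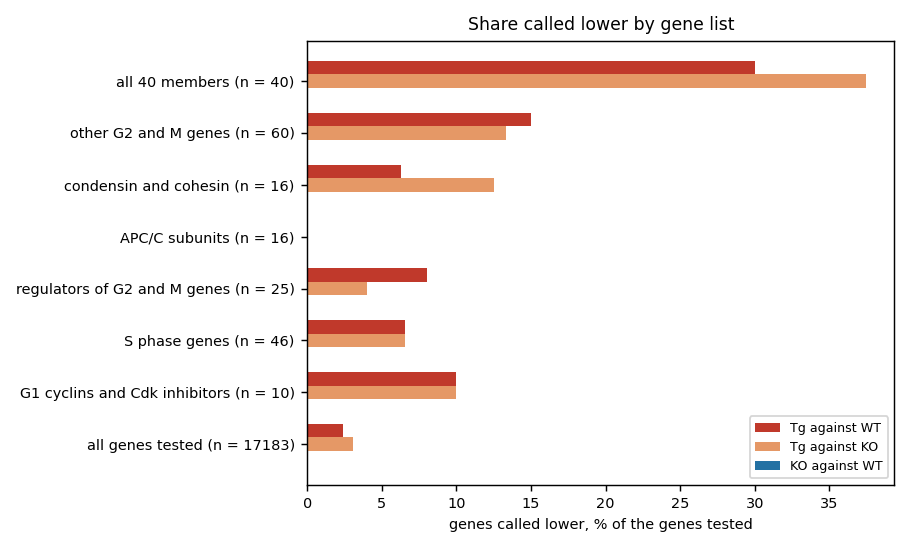
Share of the genes tested that were called lower (horizontal axis, %) among the 40 members, each list of other cell cycle genes and all genes tested, in Tg against WT, Tg against KO and KO against WT. The members' bars reach 30.0% in Tg against WT and 37.5% in Tg against KO, and in KO against WT no list has a bar, with all genes at 0.0175%.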

How the data were processed

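RNA-seq was done on LSK cells sorted from 4 Tg, 3 KO and 4 WT mice. The deposited table holds raw counts per gene symbol for the 11 libraries, 55291 rows with no blank or summary row, of which 24894 were at 0 in every library. Per the submitters' processing notes, FastQC, Trimmomatic, STAR and HTSeq were used with mm10; not given in the sources used here are their versions, the annotation, filters and the strand setting. Groups were taken from the labels. The labels describe individual mice, and p-values measure the spread between these libraries.

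The 17183 genes that passed edgeR's filterByExpr on the genotype were fitted together in edgeR 4.0.16 (R 4.3.3; TMM factors, quasi-likelihood test over all 11 libraries, 3 contrasts, Benjamini-Hochberg adjustment over all genes tested, threshold 0.05). Standard errors are the log2 fold change divided by the root of its F. Alternatives were RLE size factors, library totals, no filter, a filter of 2 CPM in 3 libraries, DESeq2 1.42.0, limma-voom (limma 3.58.1), the compared groups alone, a replicate block, the Y-linked level as a covariate and leaving out each library. Added after seeing the data were autosomal protein-coding genes alone, removal of the length trend and leaving out libraries that held Xist and Y-linked reads together. The code was tested on simulated data. Lengths and coordinates came from GENCODE M21 (GRCm38), promoters from RefSeq, and similar sequences from BLAST 2.17.0. An interval or limit from counts would cover counting error only, and none is given because no member was near 0.

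The members and lists were chosen with earlier results of these data known. Values in every library are given for members called in any comparison, for the 3 of lowest p in KO against WT, and for Cdk1, Cks2, Mki67, Nuf2 and Foxm1, chosen after their values were seen. Up to 4 called genes of lowest p are named per other list, with 11 regulators read whatever their p.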

Additional observations from a re-analysis of the deposited data

Results flagged for a closer look

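In 3 of 80 member-by-genotype groups of 4 libraries, 1 library stood apart from the other 3 by Dixon's criterion, where chance gives about 1 in 20 groups. Ccnb2, which encodes cyclin B2, was at 76.8 CPM in Tg replicate 2, while the other Tg libraries were at 59.3 to 61.8 CPM. Bub1b, which encodes the checkpoint protein BubR1, was at 143 CPM in the same Tg replicate 2, while the other Tg libraries were at 126 to 127 CPM. Aurka, which encodes Aurora A kinase, was at 54.5 CPM in WT replicate 3, while the other WT libraries were at 47.7 to 47.8 CPM. In edgeR with TMM factors and all libraries 0 of the 3 genes were called in any comparison, while DESeq2, and edgeR with library totals, called Ccnb2 lower in Tg against WT and against KO, and edgeR fitted to only the groups compared called Bub1b lower in Tg against KO.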

How the results depend on the processing

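The count of members lower in Tg against WT (12) was 12 with RLE size factors, 15 with library totals, 10 without the filter, 12 with the stricter filter, 17 by DESeq2, 10 by limma-voom, 8 with only the groups compared, 9 with the Y-linked level as a covariate, and 12 with autosomal protein-coding genes alone or without the length trend. It was 0 without the libraries that held both Xist and Y-linked reads. The count in Tg against KO (15) was 15, 15, 15, 14, 17, 14 and 16 under the first 7 of these, 15 under the last pair, 3 with the Y-linked level as a covariate and 4 without those libraries. Over all genes tested, the count lower in Tg against WT (410) was 404, 443, 429, 395, 970, 297 and 164 under the first 7 settings. It was 692 with the Y-linked level as a covariate, 388 with autosomal protein-coding genes alone and 428 without the length trend. For Tg against KO (526) it was 503, 449, 555, 420, 959, 456 and 572 under those 7. With the covariate it was 288, with autosomal genes alone 421 and without the length trend 538. With single libraries left out, the members' counts ran from 5 to 11 against WT and from 4 to 16 against KO. Members higher in Tg against WT numbered 0, and 1 (Cks2) with the Y-linked level as a covariate; they were 0 to 1 with single libraries left out. In KO against WT 0 members passed under every setting run. The log2 fold change of Prc1 in KO against WT was 0.14, and -0.031 without the libraries with both kinds of reads; the cause was not tested. The 30 log2 fold changes followed one by one kept their direction in all other cases, and lost the threshold in 96 cases with a library left out and in 72 others. Counts over the other lists moved by more than 1.5 times in 51 cases and in 48 with a library left out.

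With the replicate block, 4 members were lower in Tg against WT and 3 in Tg against KO. Of all genes tested, 103 and 179 were then called lower. The numbers showed no pairing of the mice by correlation over all genes tested. The 10 same-numbered pairs correlated at -0.227 to 0.089, 0 of them over 0.1, and 1 of 11 libraries correlated best with its own number. A pairing too weak for this measure, or masked by other differences between libraries, was not tested. Each member had 565 counts or more in every library, and the effect of depth or of the number of mice on the precision was not tested.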
